A study of Mus musculus with 6 samples.

Results

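The genes described here are 10 cytochrome P450 genes of the mouse Cyp2a, Cyp2d, Cyp2f and Cyp2j subfamilies: Cyp2a4, Cyp2a5, Cyp2a12, Cyp2a22, Cyp2d9, Cyp2d10, Cyp2d22, Cyp2d26, Cyp2f2 and Cyp2j5. They were chosen by symbol, and 9 of the 10 had a row among the 37991 Ensembl gene IDs of the count files. The reference ID of Cyp2d10 matched no row, so this gene was not analysed here. The Cyp2a genes and Cyp2f2 lie on chromosome 7, the Cyp2d genes on chromosome 15 and Cyp2j5 on chromosome 4. The rows used were ENSMUSG00000074254 (Cyp2a4), ENSMUSG00000005547 (Cyp2a5), ENSMUSG00000060407 (Cyp2a12), ENSMUSG00000091867 (Cyp2a22), ENSMUSG00000068086 (Cyp2d9), ENSMUSG00000061740 (Cyp2d22), ENSMUSG00000022445 (Cyp2d26), ENSMUSG00000052974 (Cyp2f2) and ENSMUSG00000052520 (Cyp2j5). The livers came from FVB mice aged 84 days, 3 of them Ing5 +/+ (WT) and 3 Ing5 MommeD48/+ (Het), in a study whose title describes a forward screen in the mouse for loci that alter transgene silencing. Ing5 encodes a subunit of histone acetyltransferase complexes, and the comparison asked what a single copy of the MommeD48 allele does to liver transcripts. The labels give neither the sex of the mice nor the kind of mutation, and whether each numbered liver is a different animal is not said. The p-values therefore describe the spread among these 6 samples, part of which may be technical.

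Cytochromes P450 are heme enzymes of the endoplasmic reticulum that use electrons from the reductase encoded by Por to oxidise steroids, fatty acids, bile acids and foreign compounds. The genes of the family 2 arose by repeated duplication and lie in clusters of close copies, and in mouse liver several of them differ between the sexes under the control of growth hormone. Cyp2a4 is known as a female-biased steroid hydroxylase and Cyp2d9 as a male-biased testosterone hydroxylase. Cyp2f2, which activates naphthalene, is known from airway club cells and from periportal hepatocytes, and Cyp2j5 forms epoxides of arachidonic acid.

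Total counts were 19840541 to 22041117 per library, and all 6 libraries had the transcripts of male mice, with 1644 to 1956 counts of the Y-linked helicase gene Ddx3y and 1 to 6 of Xist. No library repeated another (chi-square per degree of freedom of 10.2 to 79.9 over the 15 pairs). Ing5 itself had 9.65 ± 0.807 CPM (counts scaled to library size, with TMM factors; SD, n = 3) in WT against 9.33 ± 0.607 in Het livers, which is 0.968-fold (95% interval 0.814 to 1.15). Hepatocyte markers summed to 84079 to 97810 CPM (WT) against 86996 to 105388 (Het). Markers of 2 other tissues known to express some of these cytochromes were near 0: the 5 airway club cell markers summed to 0 CPM in all 3 WT livers and to 0, 0.644 and 0.0976 CPM in Het livers 1 to 3, and the 6 kidney proximal tubule markers to at most 0.272 CPM, with Slc5a2 and Kap at 0 in every library. Sums of Kupffer cell markers (87.7 to 163 CPM in WT, 101 to 178 in Het), stellate cell markers (176 to 284 and 252 to 309 CPM) and endothelial markers (114 to 153 and 115 to 145 CPM) overlapped between genotypes. Those of cholangiocytes did not, at 29.6 to 33.6 CPM in WT against 26.9 to 29.1 in Het livers, a separation that came from Spp1, the most abundant of them. Without Spp1, a split made after the values were seen, the sums overlapped (3.86 to 4.49 CPM in WT, 3.87 to 5.15 in Het), and 3 of the 4 other tested markers were higher in Het by sign. Their part in the results was not tested. In bulk RNA, fewer cells of a type and less RNA per cell cannot be told apart.

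Together the 9 genes held 0.628%, 0.550% and 0.673% of all counts in WT livers 1 to 3 and 0.606%, 0.564% and 0.604% in Het livers 1 to 3. The means were 0.617% ± 0.0624 in WT and 0.591% ± 0.0240 in Het livers (SD, n = 3), and the ranges overlapped. Counting error alone was small, since the exact binomial 95% interval of the share in WT liver 1 was 0.625% to 0.632%. Cyp2d9 supplied 21.3% to 26.5% of this sum in single livers and Cyp2f2 20.8% to 24.1%, while Cyp2a4 and Cyp2a22 supplied at most 0.0142% and 0.252%. Intervals from counts cover counting error only.

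Levels of different genes were compared per kilobase of transcript, with the length of the annotated transcript that has the longest coding sequence. In order of median CPM per kilobase the genes were Cyp2d9, Cyp2f2, Cyp2d26, Cyp2a12, Cyp2j5, Cyp2a5, Cyp2d22, Cyp2a22 and Cyp2a4. Cyp2d9 had 753 to 915 CPM per kilobase over the 6 livers and Cyp2f2 613 to 868, so these neighbours were not separated. Neither were Cyp2d26 (405 to 522) and Cyp2a12 (399.96 to 507), Cyp2j5 (278 to 377) and Cyp2a5 (117 to 382), or Cyp2a5 and Cyp2d22 (137 to 180). The ranges lay apart between Cyp2f2 and Cyp2d26, between Cyp2a12 and Cyp2j5, between Cyp2d22 and Cyp2a22 (3.89 to 9.65), and between Cyp2a22 and Cyp2a4 (0.157 to 0.562). With the merged length of all annotated exons, a choice made after the data were seen, Cyp2f2 (median 709.6 CPM per kilobase) stood above Cyp2d9 (543) and Cyp2j5 (358) above Cyp2a12 (217). On that length the ranges of Cyp2f2 (565 to 799.7) and Cyp2d9 (485 to 589.6) overlapped. Those of Cyp2j5 (278 to 377) and Cyp2a12 (194 to 247) lay apart.

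**Figure D1:**
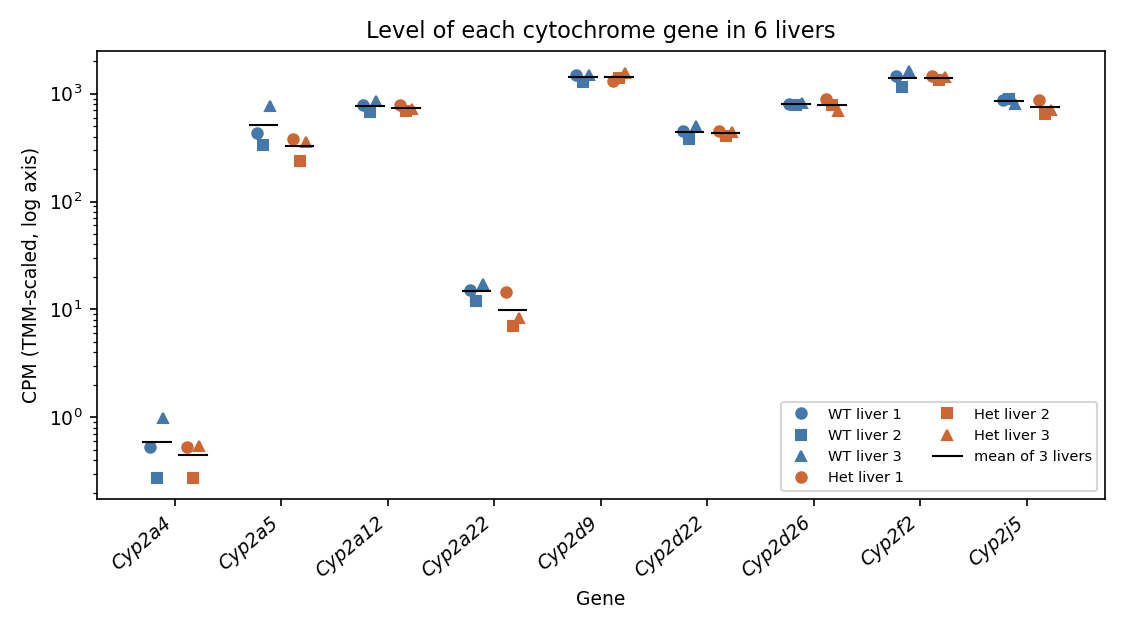
CPM of 9 cytochrome genes (x axis) in each of 6 livers on a log axis (y axis), with blue symbols for WT, orange for Het and a black line for the mean of 3 livers. Cyp2d9 and Cyp2f2 exceed 1144 CPM in every liver, while Cyp2a22 stays under 17.4 CPM and Cyp2a4 peaks at 0.977 CPM.

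The Cyp2a genes form 2 pairs of close copies, and within each pair the copies differed widely in level, at 183 against 0.304 CPM per kilobase (medians) for Cyp2a5 and Cyp2a4 and 446 against 7.31 for Cyp2a12 and Cyp2a22. Cyp2a5, a coumarin hydroxylase that also oxidises nicotine, had 8923, 7376 and 14952 counts in WT livers 1 to 3 and 7907, 5132 and 7339 in Het livers 1 to 3. Cyp2a4 had 11, 6 and 19 counts in the same WT livers and 11, 6 and 11 in the Het livers. Coding sequences of this pair differed at 23 of 1482 bases (98.4% identity). The next pair was Cyp2a12 and Cyp2a22, whose coding sequences differed at 45 of 1476 bases (96.95% identity). Cyp2a12, an enzyme of steroid and bile acid hydroxylation, had 16190, 14809 and 16580 counts in WT and 16580, 15105 and 14762 in Het livers, against 316, 261 and 337 for Cyp2a22 in WT and 301, 152 and 169 in Het livers.

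The sequences before the start sites of these 4 genes are shown because copies that differ so widely in level also have closely related promoters. They are the 250 bases upstream of the RefSeq start in build GRCm38.p6, a build other than the mm9 named for the counts, at chr7:26306942-26307191 (plus strand) for Cyp2a4, chr7:26835089-26835338 (plus) for Cyp2a5, chr7:27028840-27029089 (plus) for Cyp2a12 and chr7:26939387-26939636 (minus) for Cyp2a22. Capitals mark bases within the aligned stretch that differ from the other copy of the pair or lie opposite a gap. Bases beyond that stretch are in lower case although they had no partner to compare. They lie at the start of Cyp2a4 and Cyp2a22 and at the end of Cyp2a5 and Cyp2a12.
Cyp2a4: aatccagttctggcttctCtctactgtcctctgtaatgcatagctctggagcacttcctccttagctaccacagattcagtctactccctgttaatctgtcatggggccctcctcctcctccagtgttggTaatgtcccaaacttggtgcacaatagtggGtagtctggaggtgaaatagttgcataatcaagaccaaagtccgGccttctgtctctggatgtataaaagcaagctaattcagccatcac
Cyp2a5: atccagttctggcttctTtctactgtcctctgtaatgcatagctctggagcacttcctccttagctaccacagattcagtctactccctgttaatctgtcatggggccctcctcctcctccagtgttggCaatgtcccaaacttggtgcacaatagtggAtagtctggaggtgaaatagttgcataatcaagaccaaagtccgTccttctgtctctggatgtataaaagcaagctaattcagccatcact
Cyp2a12: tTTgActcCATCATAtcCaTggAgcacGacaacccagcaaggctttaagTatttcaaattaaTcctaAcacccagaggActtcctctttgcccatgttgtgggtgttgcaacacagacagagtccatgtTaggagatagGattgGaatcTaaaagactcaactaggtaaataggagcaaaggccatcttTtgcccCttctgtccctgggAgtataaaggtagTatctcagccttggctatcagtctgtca
Cyp2a22: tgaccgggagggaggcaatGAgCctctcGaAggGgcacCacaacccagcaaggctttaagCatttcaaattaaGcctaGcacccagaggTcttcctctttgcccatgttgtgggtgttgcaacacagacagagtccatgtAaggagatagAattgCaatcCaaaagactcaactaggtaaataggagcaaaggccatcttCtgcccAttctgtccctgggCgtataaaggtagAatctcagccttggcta

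The promoters of Cyp2a4 and Cyp2a5 differed by 4 substitutions over 249 aligned bases (98.4% identity), and those of Cyp2a12 and Cyp2a22 by 19 substitutions and 7 gap bases over 232 aligned bases (91.8% identity). The letters TATAAA, the core of a TATA box, were found on either strand in 8 of the 9 genes of the set with a RefSeq promoter and in 12.4% of all 32851 promoters of the same length. Cyp2f2 was the exception, and Cyp2d22 had no promoter entry. The letters CAAAGTCC, a core recognised by the hepatocyte factor HNF4A, were found in Cyp2a4 and Cyp2a5 only, against 1.196% of all promoters, and did not overlap TATAAA. Both motifs were chosen with these sequences in view, and matches in close copies are not separate observations, so the shares are not a test. Such matches describe the reference strain and are not measurements of binding.

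How far counts can tell these copies apart depends on how much of each transcript is its own. Of all windows of 50 bases in the Cyp2a4 transcript, 61.2% were found in no other annotated gene, and 36.1% were shared with Cyp2a5. For Cyp2a5 the share found in no other gene was 59.2%, for Cyp2a12 72.5%, for Cyp2a22 74.3% and for Cyp2d9 71.0%. With windows of 100 bases it rose to 88.8% for Cyp2a4 and 85.6% for Cyp2a5. Cyp2j5 had 99.8% at 50 bases, Cyp2d22 93.9%, Cyp2f2 89.98% and Cyp2d26 89.5%. These windows describe the reference strain, and how far they hold for FVB mice was not examined. The sources used here give neither the read length nor the treatment of reads with several matches, so the values of the Cyp2a genes and of Cyp2d9 are uncertain by whatever share of their reads was split or dropped. Counting strand was not given either, so reads from the antisense genes Gm42375 over Cyp2a4 and Gm15883 over Cyp2f2 (4 to 14 counts in its own row) cannot be told apart from theirs. An exon of Cyp2d9 also overlaps the pseudogene Gm46501 on the same strand.

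**Figure D2:**
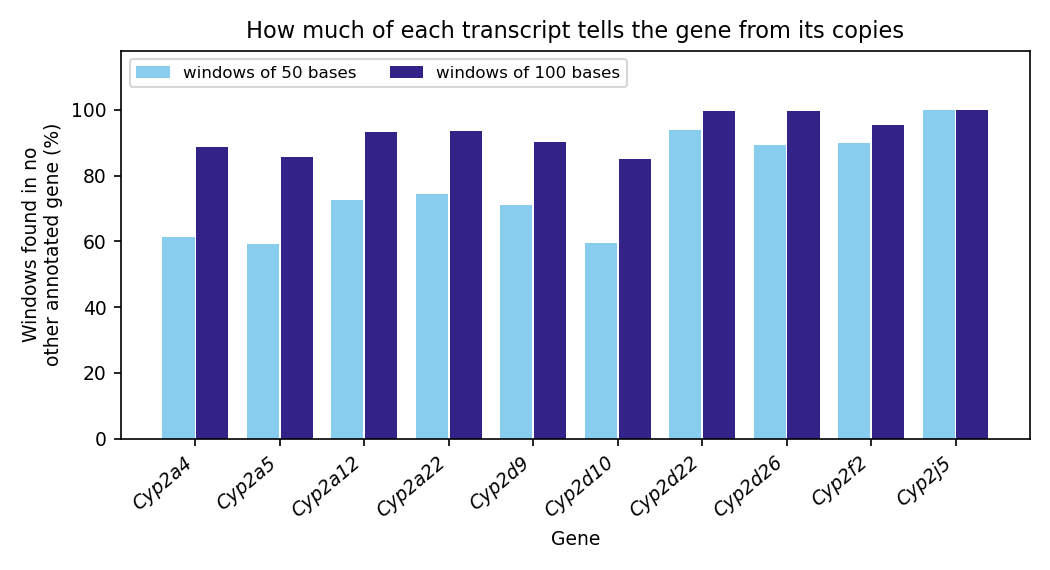
Percent of windows of 50 bases (light bars) and 100 bases (dark bars) of each transcript (y axis) that occur in no other gene of GENCODE M21, for all 10 genes (x axis). Cyp2a4, Cyp2a5 and Cyp2d10 have the lowest bars at 50 bases, at 61.2%, 59.2% and 59.5%, and Cyp2j5 reaches 99.8%.

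Cyp2a4 made up 0.123%, 0.0813% and 0.127% of the Cyp2a4 plus Cyp2a5 counts in WT livers 1 to 3 and 0.139%, 0.117% and 0.150% in Het livers 1 to 3. The exact binomial 95% intervals of single livers ran from 0.0298% at the lowest bound to 0.268% at the highest, and all of them overlapped. The mean share was 0.110% ± 0.0253 in WT and 0.135% ± 0.0168 in Het livers (SD, n = 3), a difference that did not pass the exact two-sided permutation test (p = 0.3, in a design of 3 and 3 whose p cannot go below 0.1). WT liver 3 had the most counts of both genes and Het liver 2 the fewest of Cyp2a5, so the count of the minor copy was high and low in some of the same livers as that of the major copy.

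None of the 9 genes passed the comparison of Het with WT livers (0 of 9; quasi-likelihood test of edgeR, Benjamini-Hochberg adjusted p = 0.9998 for each over 12631 genes). Over all tested genes 0% passed. At an unadjusted p under 0.05 the count was also 0 of 9, against 4.33% of all tested genes (2.21% lower and 2.12% higher in Het). The genotypes did not overlap for 0 of 9, against 8.99% of all tested genes (4.28% with every Het liver below every WT liver). DESeq2 and limma-voom called 0 of the 9 after adjustment as well. Before adjustment DESeq2 had 1 of 9 under 0.05, which was Cyp2a22, against 3.23% of all genes, and limma-voom 0 against 4.4%. With 1 liver left out, the edgeR count was 2 of 9 without Het replicate 1 (Cyp2a22 and Cyp2j5, against 7.33% of all genes). It was 1 of 9 without WT replicate 2 (Cyp2a5, against 4.16%) and 0 in the other 4 fits. Among these 4, the fit that dropped WT liver 3 had 10.8% of all genes under 0.05. That share was 3.05% when Het liver 3 was dropped, 2.75% for Het liver 2 and 2.22% for WT liver 1. Values were lower in Het livers by sign alone for 7 of 9 genes, against 49.7% of all tested genes, and the median log2 fold change was -0.06 against 0.00088. Leaving out 1 liver at a time changed the 7 to between 4 (without WT replicate 3) and 9 (without WT replicate 2).

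Cyp2a5 had the largest fitted difference of the set with all 6 livers in edgeR, fitted by genotype alone, and in DESeq2, while Cyp2a22 exceeded it with limma-voom (-0.63 against -0.60), without WT replicate 3 (-0.45 against -0.24) and without Het replicate 1 (-0.96 against -0.78). Its level was 430, 335 and 769 CPM in WT livers 1 to 3 against 378, 236 and 358 in Het livers 1 to 3. WT liver 3 stood far above the rest, Het liver 2 was the lowest, and the other 4 livers lay between 335 and 430 CPM. The log2 fold change of Het over WT was -0.66 (SE 0.35, 95% interval -1.50 to 0.18), with an unadjusted p of 0.105 in edgeR. Without WT replicate 3 it was -0.24. Counting Cyp2a4 and Cyp2a5 as a single gene gave -0.66 (SE 0.35; edgeR, Benjamini-Hochberg adjusted p = 0.9998), since nearly all reads of the pair were assigned to Cyp2a5. Cyp2a4 on its own had 0.530, 0.272 and 0.977 CPM in WT and 0.526, 0.276 and 0.537 in Het livers. At 6 to 19 counts per library its log2 fold change of -0.39 had an interval of -1.49 to 0.71, and without WT replicate 3 the value was 0.16.

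Cyp2a22 had 15.2, 11.8 and 17.3 CPM in WT livers 1 to 3 against 14.4, 6.995 and 8.25 in Het livers 1 to 3. Het livers 2 and 3 were the lowest, and Het liver 1 was within the WT range. Het over WT came to -0.58 on the log2 scale (SE 0.28, interval -1.26 to 0.10), and its unadjusted p of 0.0818 was the smallest of the set. Without Het replicate 1 it was -0.96 (edgeR, Benjamini-Hochberg adjusted p = 0.153), and without Het replicate 2 it was -0.38. Its close copy Cyp2a12 did not follow this pattern, with 780, 672 and 853 CPM in WT and 793, 695 and 721 in Het livers, a log2 fold change of -0.06 (SE 0.12). Cyp2a22 therefore took 1.91%, 1.73% and 1.99% of the counts of the pair in WT livers and 1.78%, 0.996% and 1.13% in Het livers 1 to 3, with Het liver 1 again within the WT range.

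The Cyp2d genes had nearly equal means in both genotypes. Cyp2d9 had 1484, 1289 and 1494 CPM in WT livers 1 to 3 against 1319, 1404 and 1567 in Het livers 1 to 3. WT liver 2 and Het liver 1 were the lowest and Het liver 3 the highest, and the log2 fold change was 0.01 (SE 0.12), or 1.01-fold (0.834 to 1.21). Cyp2d22, the mouse gene often compared with human CYP2D6, had 454, 378 and 499 CPM in WT against 455, 409 and 440 in Het livers. The Het values lay within the WT range, and the fold was 0.980 (0.809 to 1.19). Cyp2d26 had 808, 786 and 813 CPM in WT against 888, 782 and 689 in Het livers. Its WT livers differed by less than its Het livers, which held both the highest and the lowest value, and the fold was 0.980 (0.813 to 1.18). Coding sequences of Cyp2d9 and Cyp2d10 were 92.5% identical, and those of Cyp2d22 and Cyp2d26 78.5%.

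Cyp2f2 had 1453, 1144 and 1619 CPM in WT livers 1 to 3 against 1474, 1330 and 1421 in Het livers 1 to 3. All Het values fell between the lowest and highest WT liver, and the fold was 1.002 (0.804 to 1.25). Cyp2j5 had 881, 884 and 801 CPM in WT livers against 880, 653 and 702 in Het livers. Het livers 2 and 3 were below every WT liver and Het liver 1 was level with WT livers 1 and 2. The log2 fold change of Cyp2j5 was -0.20 (SE 0.13, interval -0.50 to 0.10). Without Het replicate 1 it was -0.34 (unadjusted p = 0.0196; edgeR, Benjamini-Hochberg adjusted p = 0.513), and without Het replicate 2 it was -0.11. For 6 of the 9 genes the 95% interval stayed within a 1.5-fold change in either direction, against 71.1% of all tested genes. The others were Cyp2a4, Cyp2a5 and Cyp2a22.

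**Figure D3:**
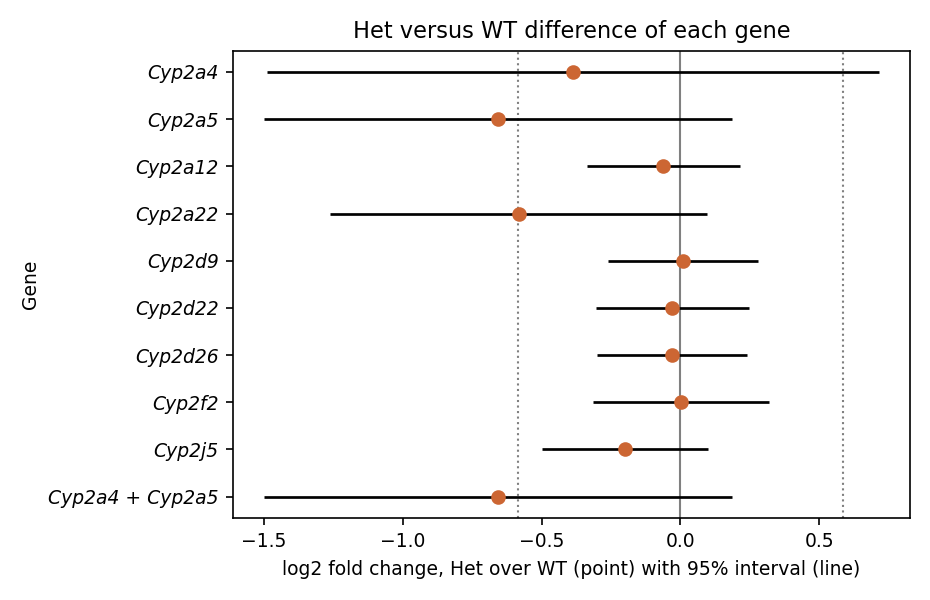
log2 fold change of Het over WT (x axis, orange points) with its 95% interval (black lines) for 9 genes and for Cyp2a4 and Cyp2a5 counted as 1 gene (y axis). Solid and dotted vertical lines mark no change and a 1.5-fold change, and every interval includes 0.

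**Figure D4:**
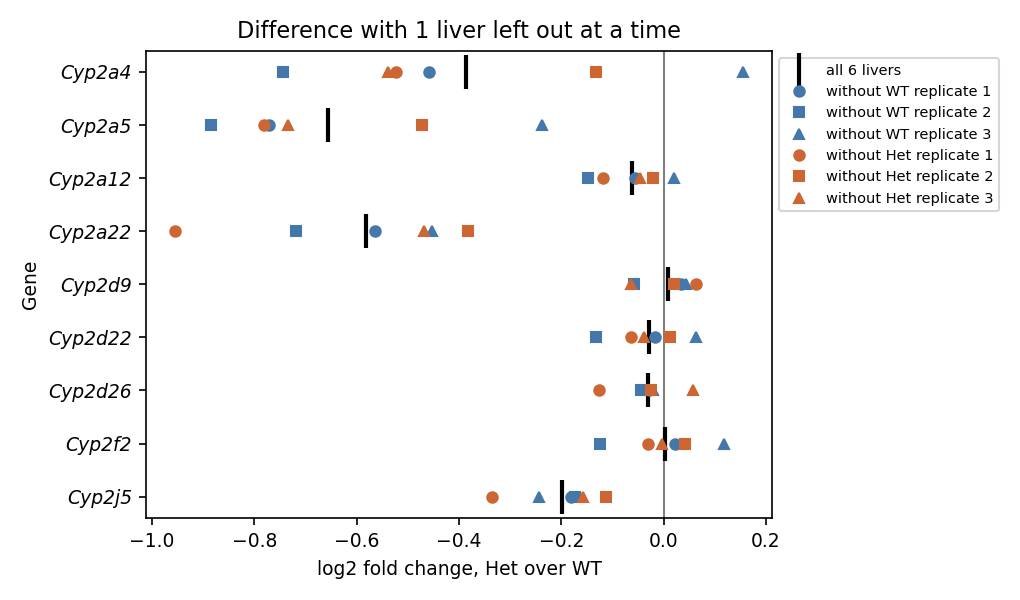
log2 fold change of Het over WT (x axis) for each gene (y axis) with all 6 livers (black bars) and with 1 liver left out at a time (blue symbols for a WT liver, orange for a Het liver). Cyp2a5 moves from -0.66 to -0.24 without WT replicate 3, and Cyp2a22 to -0.96 without Het replicate 1.

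Within a genotype the 9 genes varied to very different degrees. The within-genotype SD of log2 CPM (prior count 2) was 0.51 for Cyp2a5, wider than in 95.1% of all tested genes by rank, and 0.43 for Cyp2a22, at the 92.1 percentile. Cyp2a4 had 0.63, at the 97.7 percentile, on few counts. The other 6 genes had 0.12 to 0.19, at percentiles 36.6 to 61.5. Over all 6 livers the highest value was 3.59 times the lowest for Cyp2a4, on 6 to 19 counts, 3.26 times for Cyp2a5 and 2.48 times for Cyp2a22, but 1.22 times for Cyp2d9 and 1.27 times for Cyp2a12.

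Livers differed as a whole as well. WT liver 3 had the highest value of 6 of the 9 genes, WT liver 2 the lowest of 5 and Het liver 2 the lowest of 3. WT liver 3 also had the smallest total count. Mitochondrial genes held 13.4% of its counts, against 10.8% to 11.6% in the other libraries. The part of this in the cytochrome values was not tested. The summed level of the 9 genes was 6304, 5501 and 6867 CPM in WT livers 1 to 3 against 6202, 5517 and 5907 in Het livers 1 to 3. Genes of the acute-phase response, which the liver induces in inflammation, summed to 38064, 59281 and 22150 CPM in the same WT livers and to 35062, 26311 and 23779 CPM in the Het livers. WT liver 2 thus had the highest acute-phase sum and the lowest cytochrome sum, and WT liver 3 the reverse. The Het livers did not follow this order, since Het liver 1 had the highest of both sums among them. Het liver 2, whose cytochrome sum of 5517 CPM was close to the 5501 of WT liver 2, had a far lower acute-phase sum than that liver. The part of the acute-phase state in the cytochrome values was not tested. Of the 22 acute-phase genes tested 21 were lower in Het livers, against 49.7% of all tested genes, and the median log2 fold change was -0.62. In edgeR 0 passed after adjustment and 1 had an unadjusted p under 0.05, against 4.33% of all tested genes. The mean centred log2 CPM of the list was 0.82, 1.71 and -0.99 in WT livers 1 to 3 and 0.60, -0.81 and -1.32 in Het livers 1 to 3. The 21 genes were therefore not taken as separate observations.

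**Figure D5:**
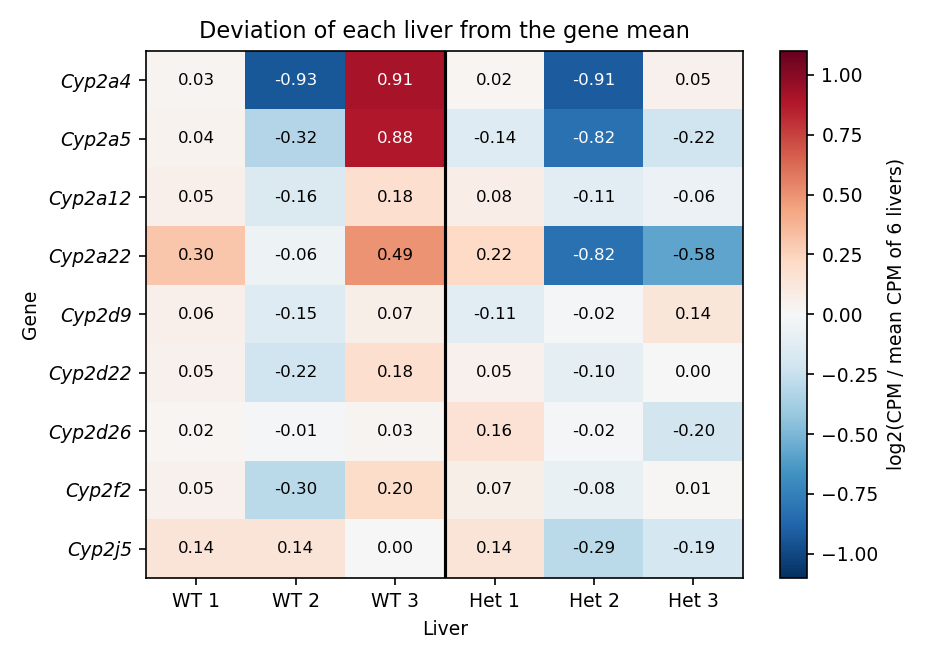
log2 of the CPM in each liver (x axis) over the mean of 6 livers for each gene (y axis), with red above and blue below the mean and the value printed in each cell. Cyp2a5 is at 0.88 in WT liver 3 and -0.82 in Het liver 2, Cyp2a22 is at -0.82 and -0.58 in Het livers 2 and 3, and Cyp2d9 stays between -0.15 and 0.14.

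For 2 genes, the one with the widest range of log2 CPM over livers and the one with the smallest p, the genes most like them were sought by the root mean square difference of centred log2 CPM over the 6 livers, among 8055 candidates with a mean log2 CPM of at least 3. The log2 CPM carried a prior count of 2, which damps genes with few counts: on this scale Cyp2a5 had the widest range (1.70) and Cyp2a4 the next (1.54), whereas the plain ratio of highest to lowest CPM was larger for Cyp2a4. Cyp2a5 was closest to Cyp46a1, a cholesterol hydroxylase gene (difference 0.20), Gstm2, a glutathione transferase gene (0.23), and Arrdc4, an arrestin domain gene (0.23). Cyp46a1 had 7.90, 7.49 and 14.3 CPM in WT livers 1 to 3 against 9.66, 6.12 and 8.10 in Het livers 1 to 3, and like Cyp2a5 it was highest in WT liver 3 and lowest in Het liver 2. Cyp2a22, the gene with the smallest p, was closest to Aldh1b1, a mitochondrial aldehyde dehydrogenase gene (0.11), Pklr, the liver pyruvate kinase gene (0.12), and Tkfc, the triokinase gene of fructose metabolism (0.15). Pklr had 229, 175 and 239 CPM in WT against 216, 102 and 150.3 in Het livers, with the same 2 Het livers lowest as for Cyp2a22. Cyp46a1 and Pklr were picked for likeness over these same 6 livers, so the shared high and low livers follow from the choice. How small a difference is usual among 8055 candidates was not tested.

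Genes that serve or control these enzymes were examined as lists. Of 16 genes for redox partners and heme supply, all tested, 0 passed in either direction with edgeR. At an unadjusted p under 0.05 there were 0, against 4.33% of all tested genes. Values in Het livers were higher for 7 and lower for 9, and the median log2 fold change was -0.02. Pgrmc1, a heme-binding partner of P450 enzymes, had 1167.5 ± 135 CPM (SD, n = 3) in WT against 1043.5 ± 48.1 in Het livers, and the electron donor Cyb5a 925 ± 108 and 933 ± 39.8 CPM. The smallest p-values of the list belonged to Alas1, the rate-limiting enzyme of heme synthesis, with 363 ± 102 and 264 ± 68.7 CPM, and to Fech, which inserts iron to form heme, with 159 ± 3.33 and 174 ± 10.5 CPM. Of 27 transcription factors and growth hormone signalling genes 0 passed with edgeR, 13 were higher and 14 lower. An unadjusted p under 0.05 was found for 2, against 4.33% of all tested genes. Among them was Nr1i2, the gene of the xenobiotic receptor PXR, with 76.8 ± 5.87 and 66.2 ± 5.88 CPM. The most abundant genes of the list were Igf1, at 913 ± 102 and 940 ± 6.48 CPM, and the growth hormone receptor gene Ghr, at 729 ± 54.6 and 743 ± 64.1 CPM.

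Since Cyp2f2 is known as a periportal gene and Cyp2a5 as a pericentral one, both zones were read from other genes. Periportal genes were lower in Het livers in 7 of 11 and pericentral genes in 5 of 10 tested, against 49.7% of all tested genes. With edgeR 0 of either passed after adjustment. At an unadjusted p under 0.05 there were 0 of either, against 4.33% of all tested genes. The sums of both lists overlapped between genotypes, at 6096 to 8591 CPM in WT against 5930 to 8532 in Het livers for periportal genes and at 9766 to 11163 and 10799 to 11662 CPM for pericentral genes. Among them were Cps1 at 2074 ± 417 and 2345 ± 614 CPM, Pck1 at 2031 ± 281 and 1446 ± 551 CPM, Cyp2e1 at 8101 ± 506 and 8915 ± 453 CPM, and Cyp1a2 at 599 ± 199.98 and 748 ± 101 CPM. Cyp2e1 alone supplied most of the pericentral sum in every liver. The smallest p-values belonged to Pck1 and Igfals (143 ± 25.2 and 161 ± 11.2 CPM) among periportal genes, and to Oat (317 ± 80.2 and 248 ± 24.8 CPM) and Cyp1a2 among pericentral genes.

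Cyp2d9 and Cyp2a4 were also set beside genes with a known sex bias in liver. Of 13 male-biased genes, values in Het livers were higher for 10, against 6357 of all 12631 tested genes. Of the 10, 3 had an unadjusted p under 0.05 in edgeR, against 2.12% of all tested genes higher at that threshold. The median log2 fold change was 0.16. Of 9 tested female-biased genes values were lower for 8, against 49.7% of all tested genes. Of the 8, 3 had an unadjusted p under 0.05 in edgeR, against 2.21% of all tested genes lower at that threshold. The median was -0.92. With edgeR 0 genes of either list passed after adjustment. These lists were chosen with their results in these livers known, so their counts are not a test. Male-biased Cyp2d9 was at 0.01 and female-biased Cyp2a4 at -0.39 in the same comparison. The Cyp2a4 value rests on 6 to 19 counts per library, with a 95% interval of -1.49 to 0.71, and was 0.16 without WT replicate 3.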

How the data were processed

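Poly(A) RNA of 6 livers was measured with Illumina TruSeq libraries, per the labels' protocols. Each deposited file gives whole-number counts for Ensembl gene IDs, with no normalisation by the authors. TopHat2 2.0.11, HTSeq 0.6.1 and DESeq with build mm9 appear in the submitters' processing notes without their role. Symbols were matched by ID for 32919 of 37991 rows in the reference table of gene names. The fit used edgeR 4.0.16 in R 4.3.3: filterByExpr left 12631 genes, followed by TMM (factors 0.977 to 1.02) and a robust quasi-likelihood fit with genotype as the sole factor. P-values were adjusted by Benjamini-Hochberg over all tested genes with a threshold of 0.05, and each F statistic gave the SE and 95% interval. DESeq2 1.42.0, limma-voom (limma 3.58.1), 2 other scalings, no low-count filter, the newer edgeR fit, a replicate block and each liver left out were the alternatives.

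Transcripts of GENCODE M21 gave lengths, coding identity (global alignment, biopython 1.88) and windows shared between genes on either strand. Promoters are from RefSeq, in build GRCm38.p6, and 9 of the 10 genes matched. Motifs were chosen with these sequences in view.

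The genes described and the 17 gene lists, the genes themselves included, were chosen with earlier results of these data known. Named were all genes of the set, Ing5, the nearest genes by pattern, and of other lists the 2 most abundant and the 2 with the smallest p; for the acute-phase, sex-biased, zonation and cell type lists mainly counts and sums are given. A gene that this rule selects from the transcription factor list is not reported here. Pancreatic acinar markers summed to at most 0.230 CPM. At these depths the 3 counts that a count of 0 allows corresponded to a floor of at most 0.151 CPM.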

Additional observations from a re-analysis of the deposited data

How the results depend on the processing

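The count of called genes among the 9 measured stayed at 0 under all 13 alternatives. Over all genes the count of 0 became 1 without the low-count filter and 13 with DESeq2, and 0 to 17 with 1 liver left out (17 without WT replicate 3, 10 without Het replicate 1); the cause was not tested. No sign of a single gene's difference changed in 63 values under other scalings, filters and tests. With 1 liver left out 10 of 54 values changed sign, and the log2 fold change ran from -0.74 to 0.16 for Cyp2a4, -0.15 to 0.0201 for Cyp2a12, -0.0630 to 0.0629 for Cyp2d9, -0.13 to 0.0642 for Cyp2d22, -0.13 to 0.0567 for Cyp2d26 and -0.12 to 0.12 for Cyp2f2. The Het minus WT difference in the summed share ran from -0.0595 to 0.0021 percentage points, positive only without WT replicate 3. The difference in the Cyp2a4 share was -0.00213 percentage points with all 4 Cyp2a genes as denominator. Library totals alone moved the median log2 fold change of all genes to 0.022.

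Whether replicate numbers mark a shared litter or day is not said, and correlations from 3 livers per genotype cannot settle it. Deviations of same-numbered livers from their genotype mean correlated at -0.0247, -0.0780 and 0.224 across genes. Not every liver correlated best with its own number: WT liver 2 and Het liver 1 had 0.250. With the replicate block 0 genes passed, as without it, and 2 of the 9 had an unadjusted p under 0.05, against 4.77% of all genes: Cyp2a5, with a log2 fold change of -0.60 (unadjusted p = 0.00816; edgeR, Benjamini-Hochberg adjusted p = 0.687), and Cyp2a22, with -0.62 (unadjusted p = 0.0110; edgeR, Benjamini-Hochberg adjusted p = 0.765). Cyp2a4 and Cyp2a5 counted as 1 gene also came to -0.60. Genes such as Cyp2a4, at 6 to 19 counts, are limited by depth.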

Other observations

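Close relatives of these genes outside the set gave further values. Of 19 named relatives 16 had a row, 6 of these had 0 counts in all libraries (Cyp2j7, Cyp2j11, Cyp2j12, Cyp2j13, Cyp2t4 and Cyp2w1), and 7 were abundant enough to test. With edgeR 0 of the 7 passed after adjustment, and 1 had an unadjusted p under 0.05, against 4.33% of all tested genes. Values were higher for 3 and lower for 4 with the mutant allele, and the median log2 fold change was -0.0014. Cyp2j6, a neighbour of Cyp2j5, had 1685, 1640 and 1465 counts in WT livers 1 to 3 and 1574, 1007 and 1195 in Het livers 1 to 3. Its log2 fold change was -0.36 (SE 0.16, unadjusted p = 0.0484), and Het livers 2 and 3 were its lowest, as they were for Cyp2j5. Cyp2j6 made up 8.44%, 7.77% and 8.60% of the counts of both genes in WT livers and 7.88%, 6.63% and 7.68% in Het livers. Cyp2d40 had 2318, 1525 and 1172 counts in WT and 1392, 1269 and 1226 in Het livers, with WT liver 1 above all others. Cyp2r1, a vitamin D hydroxylase gene, had 14.3 ± 1.32 CPM in WT against 12.1 ± 1.198 in Het livers (SD, n = 3). Its adjusted p was 0.9998 (edgeR, Benjamini-Hochberg). Every Het liver was below every WT liver, but WT liver 3 at 13.113 CPM and Het liver 1 at 13.106 CPM were nearly level. It was the 1 gene of the 7 without overlap between genotypes, against 8.99% of all tested genes.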
